A study of Mus musculus with 2 samples.

Results

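Ebf1, Ebf2, Ebf3, Foxc1 and Prrx1, 5 transcription factor genes of the bone marrow stroma, were followed through 2 droplet single-cell libraries of adult mouse marrow. They were chosen by gene symbol, and all 5 were found among the 27999 genes of the deposited count matrix. One library held LepR-Cre;tdTomato+ cells (LepR_tdT, 4250 cells) and the other bone marrow endothelial cells (EC, 4536 cells), with 1 library per population and no replicate. Both came from C57Bl/6JCrl mice of genotype LepR-Cre;LSL-tdTomato, aged 3 to 4 months, and tibial marrow was digested with enzymes. The Cre is driven by Lepr, so tdTomato marks cells that express or once expressed the leptin receptor and their descendants. The number of animals per library is not given in the labels. Their protocol text names tamoxifen by gavage and antibody stains for sample numbers that overlap, so neither can be assigned to these mice with certainty.

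EBF proteins (early B cell factors) are a family of zinc-binding helix-loop-helix factors that bind a short palindrome as dimers. Ebf1 is best known as a master regulator of B cell development, Ebf2 for its part in brown fat and in osteoblast to osteoclast signalling, and Ebf3 as a factor of marrow reticular cells that keeps the marrow cavity free of bone. Foxc1 encodes a forkhead factor that marrow reticular cells need to form a stem cell niche and to produce Cxcl12 and Kitl. It also acts in blood and lymph vessel development, together with its close relative Foxc2. Prrx1 encodes a paired-type homeodomain factor of limb and craniofacial mesenchyme, and its regulatory sequences are widely used to mark limb skeletal progenitors.

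The genes lie on different chromosomes of GRCm38 (GENCODE M21). Ebf1 (ENSMUSG00000057098) spans chromosome 11, 44617317 to 45008091, on the plus strand, and Ebf2 (ENSMUSG00000022053) spans chromosome 14, 67233292 to 67430918, on the plus strand. Ebf3 (ENSMUSG00000010476) spans chromosome 7, 137193673 to 137314445, on the minus strand, and Prrx1 (ENSMUSG00000026586) spans chromosome 1, 163245119 to 163313710, on the minus strand. Foxc1 (ENSMUSG00000050295) is a single exon of 5844 bases on chromosome 13, 31806633 to 31812476, on the plus strand. The exons of the 3 Ebf genes merge into 17 blocks each, and those of Prrx1 into 7. Overlapping genes could share reads: the counted Gm12158 in Ebf1 had 13 UMIs and Gm6878 in Ebf2 had 3, all in the LepR_tdT library. Gm26523, within Prrx1 on the same strand, had 411 UMIs in LepR_tdT and 0 in EC, beside 3554 of Prrx1. The level of Prrx1 is therefore uncertain, to an extent that these counts do not give.

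Because Ebf3, Foxc1 and Prrx1 were all high in stromal-like cells, their upstream sequences are shown for comparison. RefSeq start-site windows (GRCm38.p6) were matched for 4 of the 5 genes, not for Ebf2. Both Ebf1 windows lie inside the gene as GENCODE draws it, so none is shown. Each line gives the bases before the outermost GENCODE start, 5′ to 3′ on the gene's strand, and capitals mark a motif match. The regions are chr7:137314446-137314695 for Ebf3, chr13:31806396-31806632 for Foxc1 and chr1:163313711-163313900 for Prrx1.
Ebf3: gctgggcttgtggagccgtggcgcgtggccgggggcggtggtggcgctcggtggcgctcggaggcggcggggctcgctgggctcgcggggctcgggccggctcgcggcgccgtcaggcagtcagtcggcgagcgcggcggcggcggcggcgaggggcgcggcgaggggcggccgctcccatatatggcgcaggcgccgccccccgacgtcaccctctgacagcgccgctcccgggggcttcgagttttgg
Foxc1: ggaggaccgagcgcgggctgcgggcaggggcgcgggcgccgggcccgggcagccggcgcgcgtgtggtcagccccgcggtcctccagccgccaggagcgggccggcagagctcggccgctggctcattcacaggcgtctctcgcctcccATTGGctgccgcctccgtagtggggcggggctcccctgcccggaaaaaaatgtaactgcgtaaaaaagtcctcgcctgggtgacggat
Prrx1: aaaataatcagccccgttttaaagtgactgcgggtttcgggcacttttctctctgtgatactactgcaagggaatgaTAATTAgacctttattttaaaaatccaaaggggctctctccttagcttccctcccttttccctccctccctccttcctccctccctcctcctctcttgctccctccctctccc

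The stretches differ in base composition. GC content was 80.0% over 250 bases for Ebf3, 72.6% over 237 bases for Foxc1 and 48.9% over 190 bases for Prrx1, whose stretch is 68.9% C or T. Over the first 250 bases of all 32851 RefSeq windows the median GC content was 52.4%. Motifs were searched on both strands, and the share of all 300-base windows with a match was 0.904% for the EBF palindrome, 3.65% for the forkhead motif GTAAACA, 5.29% for the homeodomain core TAATTA, 37.4% for CCAAT and 13.6% for TATAAA. The sequence printed for Prrx1 holds 1 TAATTA, that for Foxc1 holds 1 CCAAT on the opposite strand (printed ATTGG), and that for Ebf3 holds none of the 5 motifs.

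Cells were clustered without the 5 genes and named from marker sets, as "like" classes. The LepR_tdT library held 2918 stromal-like cells (68.7%), 281 osteolineage-like, 17 pericyte-like and 61 endothelial-like cells, and the EC library 3433 sinusoidal-like and 249 arterial-like cells. The LepR_tdT label fits its markers, with Lepr, the leptin receptor, at 608 CPM in its cells against 16.4 CPM in EC cells, and Cdh5, which encodes VE-cadherin, at 9.48 against 793 CPM. CPM are UMIs (counted molecules) per 1000000 UMIs of the cells summed. Unnamed groups were a shallow cluster in each library led by mitochondrial genes (604 cells in LepR_tdT, 708 in EC) and a stromal group of 290 LepR_tdT cells led by Kit, Hsd11b1 and Cxcl5. Total UMIs in cells were 18139911 in LepR_tdT and 14111524 in EC. The libraries shared 42 cell barcodes, where 26.15 would be expected by chance. Intervals below are 95% intervals of counting error only, and population and preparation cannot be told apart between the libraries.

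All 5 genes were called higher in the LepR_tdT library than in the EC library, beside 20.9% of 13456 measured genes. A gene is called here when the groups differ at least 2-fold, the interval of the ratio excludes no difference and both groups together hold at least 20 UMIs, which makes it measured. Over all its cells Ebf1 stood at 811 CPM (798 to 824), against 44.7 CPM (41.3 to 48.3) in EC cells. Ebf3 stood at 356 against 10.5 CPM, Foxc1 at 254 against 25.7 CPM, and Prrx1 at 196 against 0.425 CPM. Ebf2 was rare, with 259 UMIs in LepR_tdT (14.3 CPM) and 1 UMI in EC. The residual signal in the EC library thus differed between the genes, with 631 UMIs of Ebf1, 363 of Foxc1 and 148 of Ebf3 but 6 of Prrx1.

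The difference held between the named classes. All 5 genes were called higher in stromal-like than in EC endothelial-like cells, where 21.2% of 12849 measured genes were called higher. For Ebf1 the stromal-like level was 842 CPM (827 to 857) and the endothelial-like level 37.3 CPM (34.0 to 40.8), which differ by 4.50 (4.36 to 4.63) on the log2 scale. Ebf3 reached 388 CPM against 10.7 CPM, a log2 ratio of 5.17 (4.93 to 5.43). Foxc1 had the smallest difference, 279 CPM (271 to 288) against 27.2 CPM (24.4 to 30.2), a log2 ratio of 3.36 (3.20 to 3.52). Prrx1 had the largest, with 2828 UMIs against 6, a log2 ratio of 8.77 (7.64 to 10.21). For Ebf2 the 200 UMIs in stromal-like cells faced a single UMI, so that its log2 ratio of 7.53 carries an interval of 5.03 to 12.84.

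Among all genes measured, 0.809% had a higher ratio than Prrx1, 3.95% a higher one than Ebf3, 5.07% than Ebf1 and 7.62% than Foxc1. The median log2 ratio of the 5 was 5.17, beside 0.10 over all genes. The 61 endothelial-like cells of the LepR_tdT library gave the same direction within 1 preparation. There 10.1% of 11677 genes were called higher in stromal-like cells, as were 4 of the 5 genes, with log2 ratios of 3.80 (3.00 to 4.75) for Ebf1, 3.27 (2.29 to 4.48) for Ebf3, 3.21 (2.09 to 4.66) for Foxc1 and 5.34 (2.86 to 10.64) for Prrx1. Those 61 cells held 12 UMIs of Ebf1, 8 of Ebf3, 6 of Foxc1, 1 of Prrx1 and 0 of Ebf2. Free RNA, read from barcodes of 1 to 100 UMIs outside the cell table, held the same genes at higher levels in that library, 385 CPM for Ebf1, 309 CPM for Ebf3, 159 CPM for Foxc1 and 115 CPM for Prrx1. Its part in the counts of these 61 cells was not tested.

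**Figure D1:**
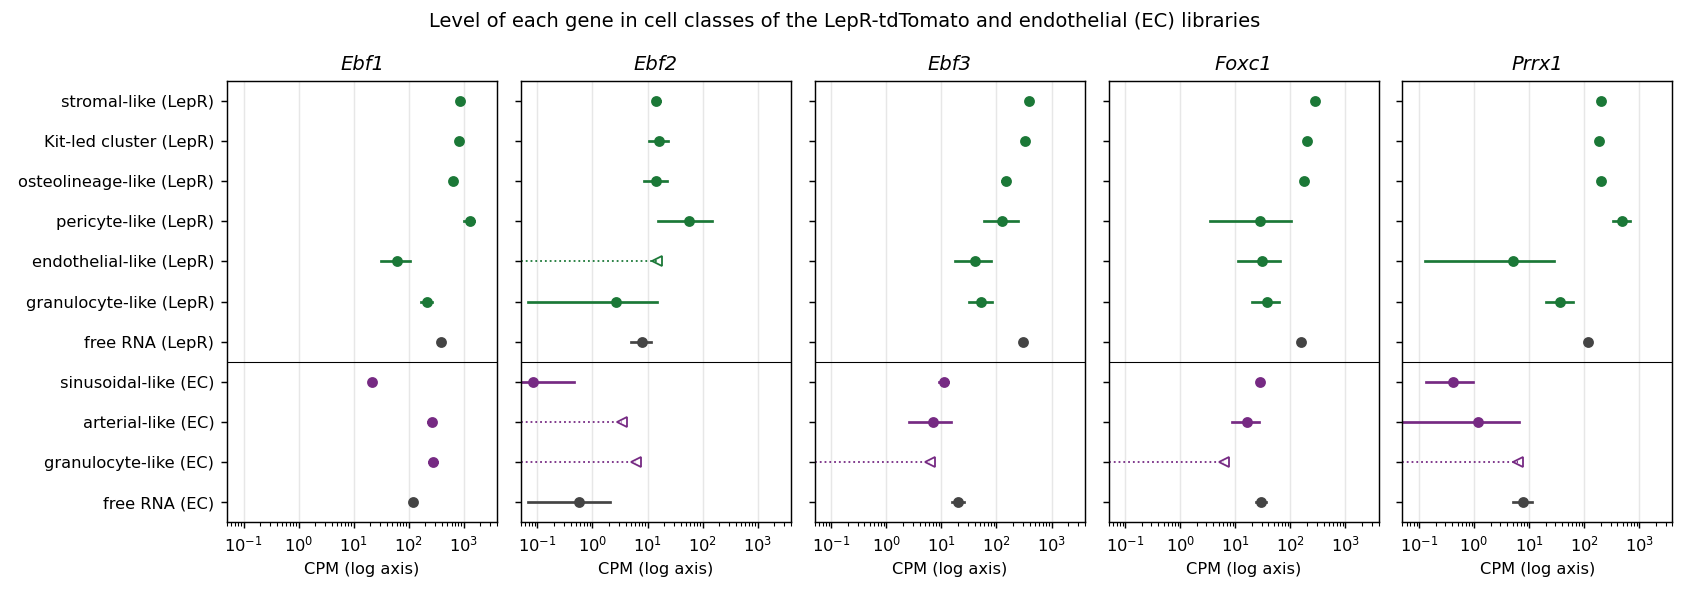
Level of each gene in CPM (log axis) by cell class. Points are class sums, lines 95% Poisson intervals (some run past the left edge), and open arrowheads with dotted lines mark classes with 0 UMIs at the level of 3 UMIs; classes of the LepR_tdT library are green, those of the EC library purple and free RNA grey. Prrx1 and Ebf2 are nearly empty in endothelial-like classes, Ebf1 stands at 260 CPM in arterial-like cells, and Foxc1 keeps 28.0 CPM in sinusoidal-like cells.

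Most stromal-like cells carried transcripts of 4 of the genes, and few carried Ebf2. An Ebf1 UMI was seen in 94.7% of the 2918 cells, with a median of 4 UMIs per cell and a highest count of 18. The shares were 79.6% for Ebf3, 68.2% for Foxc1, 57.0% for Prrx1 and 6.20% for Ebf2. Had every cell held the class level, the shares computed from the cells' depths would have been 95.8%, 80.9%, 70.7%, 59.9% and 6.60%, each only slightly above the share seen. Cells without a UMI were thus somewhat more frequent than a single common level gives at this depth, for each gene. Whether these gaps exceed counting error was not tested.

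Detection of 1 gene differed little with detection of another. After thinning each stromal-like cell to 1000 UMIs (2907 cells kept, 11 shallower cells left out), an Ebf3 UMI was seen in 34.8% (32.5 to 37.2) of cells with Ebf1 and 32.2% (29.6 to 34.9) of cells without. Foxc1 was seen in 25.0% of cells with Ebf1 and 22.6% of cells without, and Prrx1 in 17.5% and 16.4%. The intervals overlapped for all 20 ordered pairs at this depth. At 1000 UMIs, 19.0% of cells held none of the 5 genes, 40.9% held 1, 29.3% held 2, 9.84% held 3, 27 cells held 4 and 1 cell held all 5.

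The genes varied little with the osteogenic or adipogenic lean of stromal-like cells. Cells of at least 1000 UMIs were split into 3 groups of 969 by the osteogenic share of their UMIs of 10 osteogenic and 7 adipogenic genes, lists that hold none of the 5 and no transcription factor. Ebf1 stood at 850 CPM in the most adipogenic, 839 CPM in the middle and 834 CPM in the most osteogenic cells. Ebf3 stood at 390, 401 and 371 CPM, Foxc1 at 274, 271 and 294 CPM, and Prrx1 at 198, 196 and 216 CPM. The log2 ratios of the osteogenic to the adipogenic end were -0.03 (-0.09 to 0.04), -0.07 (-0.17 to 0.03), 0.10 (-0.01 to 0.21) and 0.12 (-0.01 to 0.25), and each interval includes 0. With 2 groups in place of 3, Foxc1 had a log2 ratio of 0.11 (0.02 to 0.20), which excludes 0, and Ebf3 one of 0.01 (-0.07 to 0.08). Ebf2, at 13.5, 13.2 and 16.5 CPM, had a wide interval (0.29, -0.21 to 0.80). Over the same cells Cebpa and Pparg, master factors of fat cells, were lower at the osteogenic end, with log2 ratios of -0.41 (-0.52 to -0.31) and -0.44 (-0.69 to -0.19). Runx2, the master factor of bone, was slightly higher there, at 0.21 (0.05 to 0.37). Sp7, another bone factor, had a log2 ratio of 0.03 (-0.28 to 0.33), which includes 0.

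Osteolineage-like cells, led by genes of bone and cartilage matrix such as Bglap, Col1a1 and Col2a1, kept most of these genes but had less Ebf3. Ebf3 fell from 388 CPM (378 to 398) in stromal-like to 148 CPM (128 to 169) in osteolineage-like cells, a log2 ratio of -1.39 (-1.60 to -1.19), where 5.48% of 11760 measured genes were called lower. Only 2.97% of genes had a lower ratio. Ebf3 UMIs were seen in 33.7% (32.0 to 35.5) of stromal-like and 13.8% (9.89 to 18.7) of osteolineage-like cells at 1000 UMIs per cell. The other 4 genes were not called. Prrx1 stood at 202 CPM (179 to 227) against 203 CPM (196 to 211), with a log2 ratio of -0.01 (-0.19 to 0.17), and Ebf2 at 14.4 CPM in both, with a wide interval (-0.74 to 0.67). Foxc1 stood at 179 against 279 CPM, with a log2 ratio of -0.64 (-0.84 to -0.46), and Ebf1 at 635 against 842 CPM, with a log2 ratio of -0.41 (-0.51 to -0.31), both differences of less than 2-fold. When classes were taken from a marker gate in place of clusters, only 24 cells were osteolineage-like, and Ebf1 (-1.08, on 19 UMIs) and Foxc1 (-3.67, on 1 UMI) were called lower too.

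Some relatives stood higher in osteolineage-like cells. Of 10 genes on a list of family members and cofactors, 6 were measured in this contrast, 3 were called higher in osteolineage-like cells and none lower, beside 4.85% of all genes called higher. Foxc2, the forkhead paralogue of Foxc1, stood at 176 CPM (155 to 200) against 48.6 CPM (45.0 to 52.4), a log2 ratio of 1.86 (1.64 to 2.07). Prrx2, the paralogue of Prrx1, had 41 UMIs in the 281 osteolineage-like cells and 31 UMIs in the 2918 stromal-like cells, a log2 ratio of 3.73 (3.02 to 4.45). Zfp521, a zinc finger protein that can bind and block EBF proteins, had a log2 ratio of 1.13 (0.39 to 1.80) on 22 and 101 UMIs. The related Zfp423 (-0.29, -1.07 to 0.41) and Foxs1 (0.74, 0.47 to 1.01) were not called, nor was Foxf2.

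Among bone and fat factors, Sp7 (1.71) and Dlx6 (1.02) were among those called higher in osteolineage-like cells, and Pparg (-2.53) and Klf15 (-1.78) lower. Runx2 (0.50) and Dlx5 (0.43) were not called. Over all measured genes in this contrast, 4.85% were called higher and 5.48% lower. The osteogenic list as a whole had 12 of 17 measured genes higher and none lower, and the adipogenic list 7 of 11 lower and none higher, but structural genes on both lists helped to define the classes. Of 10 genes reported to need Foxc1 or EBF factors in marrow stroma, 7 were lower in osteolineage-like cells, beside 5.48% of all genes. They were Cxcl12, Kitl, Il7, Lepr, Adipoq, Pparg and Angpt1, and 1 gene, Tnfrsf11b, was higher, beside 4.85%. The median log2 ratio of the 10 genes was -1.37, beside -0.06 over all genes. Lepr and Adipoq on this list were naming markers, and non-transcription-factor genes such as Cxcl12 could enter the clustering. Stromal markers summed to 5733 CPM in osteolineage-like cells against 23054 CPM in stromal-like cells, chondrocyte markers to 374 against 23.4 CPM, and erythroid markers to 2918 against 260 CPM. Their part in the Ebf3 difference was not tested.

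**Figure D2:**
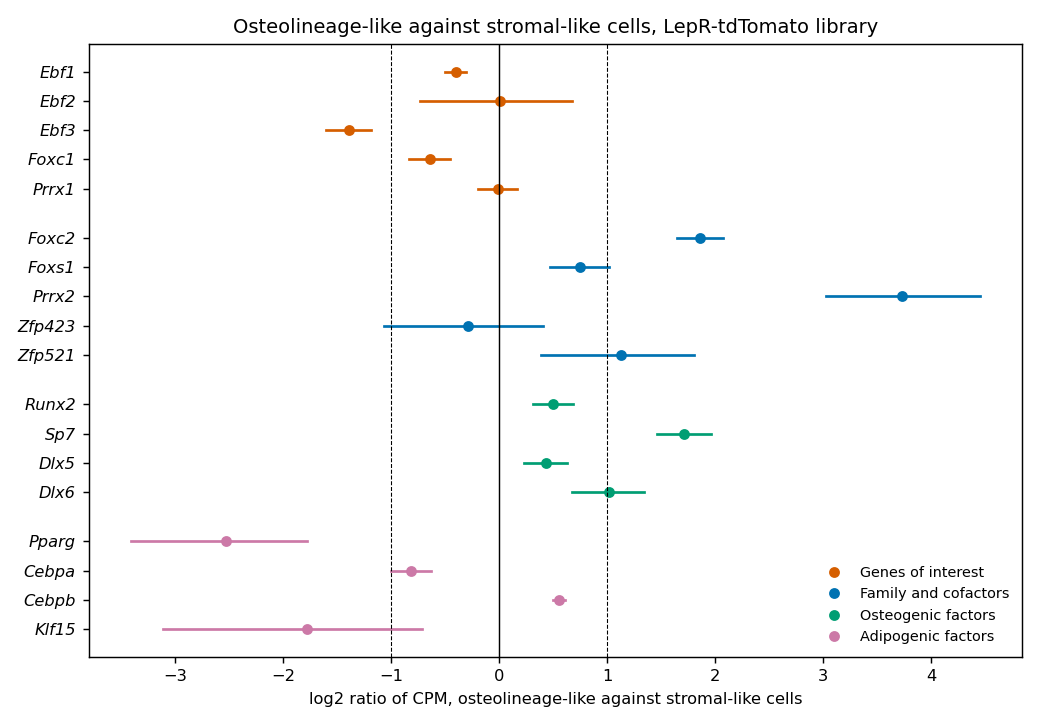
Log2 ratio of CPM in osteolineage-like against stromal-like cells for the 5 genes, 5 relatives and cofactors, and bone and fat transcription factors. Points are ratios, lines their 95% intervals of counting error, and dashed lines mark 2-fold. Ebf3 (-1.39) lies left of the line while Foxc2 (1.86) and Prrx2 (3.73) lie right of it, and Prrx1 and Ebf2 sit at 0.

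The mix of Ebf transcripts differed with the class. In stromal-like cells Ebf1 supplied 67.7% (67.0 to 68.4) of the 17303 Ebf1, Ebf2 and Ebf3 UMIs and Ebf3 31.2% (30.5 to 31.9). In osteolineage-like cells Ebf3 was down to 18.5% (16.3 to 20.9) of 1107 UMIs, and in pericyte-like cells to 8.82% (4.11 to 16.1) of 102. Arterial-like cells of the EC library had almost no Ebf3, 2.60% (0.959 to 5.57) of 231 UMIs, with Ebf1 at 97.4%. Sinusoidal-like cells had 34.1% (29.4 to 39.1) Ebf3 of 387 UMIs. The shallow LepR_tdT cluster (68.4% Ebf1) and the Kit-led group (70.2%) were close to stromal-like cells, although the interval of the Kit-led group (68.1 to 72.2) lies partly above theirs. Free RNA had its own mix, 54.8% Ebf1 in LepR_tdT and 85.3% in EC.

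**Figure D3:**
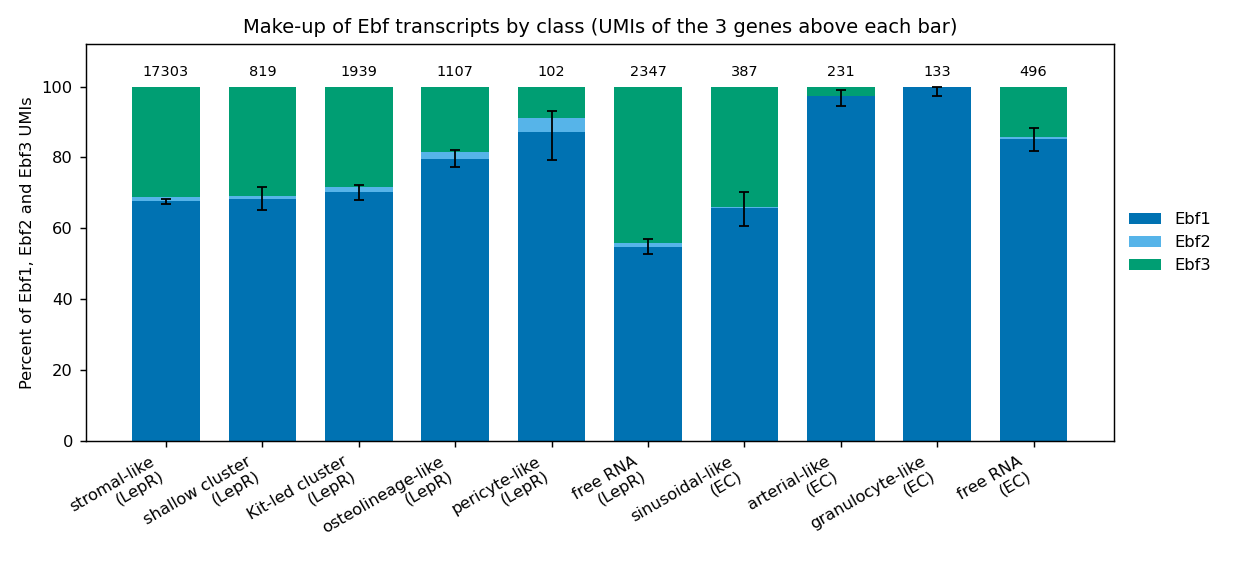
Share of Ebf1, Ebf2 and Ebf3 among the UMIs of the 3 genes in each class, in percent, with the number of UMIs above each bar. Error bars are exact binomial 95% intervals of the Ebf1 share. Ebf3 makes up 31.2% in stromal-like, 18.5% in osteolineage-like and 2.60% in arterial-like cells.

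Pericyte-like cells were few, and Acta2, Rgs5, Tagln and Myh11 were among their leading genes. Cspg4, another marker of the set, had only 2 UMIs. No marker set for smooth muscle cells was used, so these were not told apart from pericytes. The 17 pericyte-like cells held Ebf1 at 1268 CPM (1018 to 1560) and Prrx1 at 484 CPM (335 to 677). Against stromal-like cells Prrx1 was called higher (log2 ratio 1.25, 0.72 to 1.74), where 5.79% of 11614 genes were called higher, as was Ebf2 on 4 UMIs (1.99, 0.10 to 3.37). Ebf3 (-1.60, -2.73 to -0.67) and Foxc1 were called lower, where 3.73% of genes were, Foxc1 on only 2 UMIs (-3.29, -6.34 to -1.44). Ebf1 was not called (0.59, 0.27 to 0.89). With 17 cells, many measured genes had too few UMIs in this class to be called, which limits both shares. Foxs1, a forkhead gene of pericytes, stood at 342 CPM (219 to 509) there. In these 17 cells Rgs5 stood at 13635 CPM and Acta2 at 8349 CPM, against 8.34 and 1.94 CPM in stromal-like cells. Both genes are in the marker set that named the class, so their height was set by the naming.

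Within the EC library, Ebf1 was higher in arterial-like than in sinusoidal-like cells. It stood at 260 CPM (227 to 296) in 249 arterial-like cells and 21.2 CPM (18.7 to 24.0) in 3433 sinusoidal-like cells, a log2 ratio of 3.61 (3.35 to 3.88), where 6.93% of 11102 genes were called higher. Only 0.694% of genes had a higher ratio. The arterial-like cells, 5.49% of the library, held 225 of its 631 Ebf1 UMIs. A UMI was seen in 45.0% of them and in 6.38% of sinusoidal-like cells, and after thinning to 1000 UMIs per cell in 20.0% (15.0 to 25.8, 225 cells kept, 24 left out) and 2.15% (1.69 to 2.70, 3388 kept, 45 left out). A common level in every arterial-like cell would have given 53.7% unthinned, against the 45.0% seen. The highest count was 8 UMIs, and the cell with most UMIs held 3.56% of the total.

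Most markers of other Ebf1-rich cells were scarce in the arterial-like cells. Rgs5 had 4 UMIs and Acta2, Myh11, Cspg4, Notch3 and Higd1b had 0, whereas Kcnj8 and Abcc9, potassium channel genes that were abundant in sinusoidal-like cells too, had 307 and 148. B cell markers had 2 UMIs in all. Stromal markers summed to 181 CPM in arterial-like and 293 CPM in sinusoidal-like cells. Sinusoidal markers summed to 2730 CPM in arterial-like cells, beside 2706 CPM of arterial markers, against 7172 and 476 CPM in sinusoidal-like cells. Ly6a supplied 1691 of the 2343 arterial marker UMIs in arterial-like cells. The part of sinusoidal cells in the arterial-like class was not tested. Arterial-like cells with an Ebf1 UMI (median 4018 UMIs) carried pericyte markers at 384 CPM and those without (median 2463 UMIs) at 723 CPM. Kcnj8 and Abcc9 supplied most of the 460 pericyte marker UMIs of the class, so these sums say little about pericytes. Stromal markers stood at 194 CPM in cells with an Ebf1 UMI and 165 CPM in those without. The part of other cell types in the Ebf1 counts was not tested. Free RNA of the EC library held Ebf1 at 120 CPM (109 to 132), below the arterial-like and above the sinusoidal-like level.

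Of the other members, only Foxc1 and Ebf3 were measured in this contrast. Foxc1 stood at 16.2 CPM (8.84 to 27.1) in arterial-like and 28.0 CPM (25.1 to 31.1) in sinusoidal-like cells, a log2 ratio of -0.79 (-1.68 to -0.02), and Ebf3 at 6.93 against 11.0 CPM (-0.67, -2.14 to 0.49). Neither was called. Prrx1 had 1 and 5 UMIs and Ebf2 0 and 1, too few to compare. Among relatives, Foxc2 was higher in arterial-like cells on 13 and 69 UMIs (1.38, 0.40 to 2.25). Zfp521 was called lower, where 3.83% of genes were, at 15.0 against 84.4 CPM (-2.49, -3.41 to -1.71). Zfp521 was also 11.0-fold lower in stromal-like (7.26 CPM) than in EC endothelial-like cells (79.7 CPM).

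**Figure D4:**
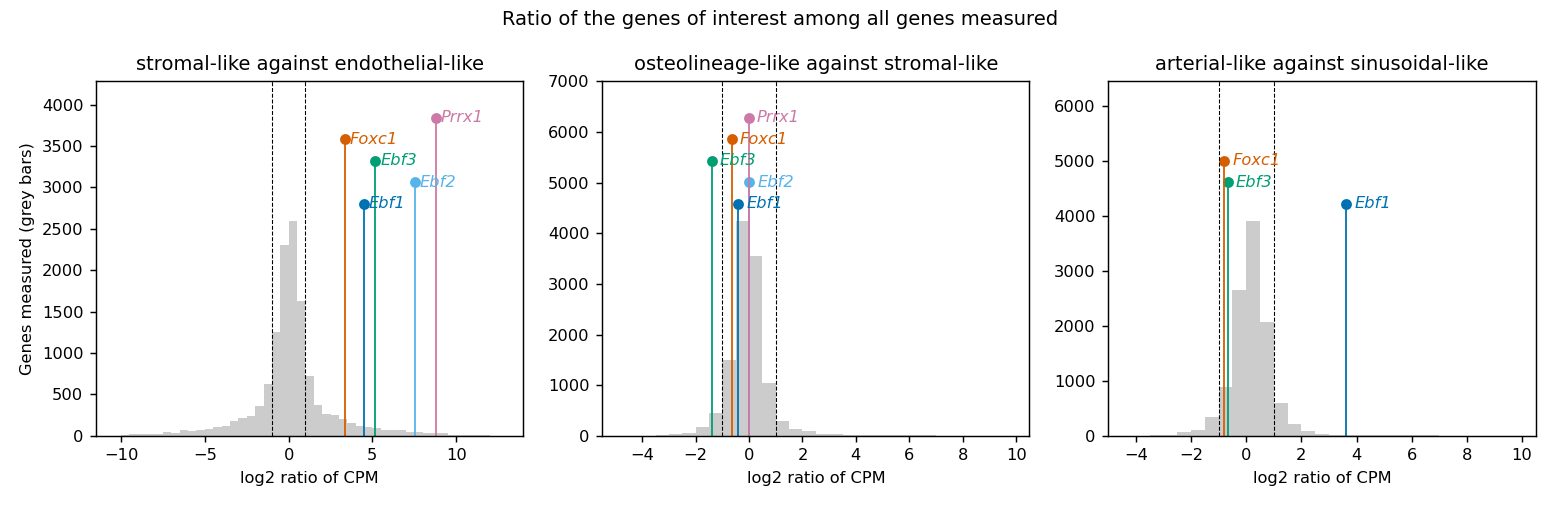
Log2 ratios of CPM in 3 contrasts. Grey bars count all measured genes in bins of 0.5, coloured stems mark the measured genes of interest, their heights have no meaning, and dashed lines mark 2-fold. All 5 lie at the right in stromal-like against endothelial-like cells, only Ebf3 passes 2-fold in osteolineage-like against stromal-like cells, and only Ebf1 in arterial-like against sinusoidal-like cells.

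Sinusoidal-like cells held a low level of Foxc1. Its 335 UMIs lay in 9.18% of cells, 2.54% (2.03 to 3.12) after thinning to 1000 UMIs. The level of 28.0 CPM was close to that of free RNA in the same library, 29.2 CPM (23.8 to 35.4). Granulocyte-like cells of that library, which should lack the gene, had 0 Foxc1 UMIs (6.26 CPM if taken as 3 UMIs), and erythroid-like cells 2 UMIs (6.37 CPM). Per 1000 UMIs of Cxcl12, a chemokine gene abundant in stromal cells, Foxc1 had 991 UMIs (888 to 1103) in sinusoidal-like cells, 34.0 (27.8 to 41.2) in free RNA and 7.67 in stromal-like cells. Ebf3 gave 391 per 1000 Cxcl12 UMIs in sinusoidal-like cells against 23.4 in free RNA, and 0 UMIs in granulocyte-like cells, but stood lower in CPM (11.0) than free RNA (20.1). The part of free RNA in these Foxc1 and Ebf3 counts was not tested. Of the sinusoidal-like clusters, the one led by the early response genes Apold1, Atf3 and Klf4 had more Foxc1, 35.1 CPM (30.4 to 40.4) against 21.1 CPM (17.6 to 25.0) in the one led by Cxadr and Sema3a, a log2 difference of 0.74 (0.41 to 1.07), short of 2-fold.

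Ebf1 was also high in a few cells with B lineage markers. The granulocyte-like cluster of the EC library held 133 Ebf1 UMIs (278 CPM, against 260 CPM in arterial-like cells, a log2 difference of 0.10, -0.23 to 0.41) and none of Ebf2, Ebf3, Foxc1 or Prrx1. Of these, 119 lay in 9 cells with at least 3 UMIs of B cell markers, at 1840 CPM (1524 to 2201), beside 143 UMIs of Vpreb3 and 77 of Cd79a. The other 48 cells of the cluster held 14 UMIs (33.8 CPM). In the LepR_tdT library 2 such cells held 33 of the cluster's 81 Ebf1 UMIs, beside 5 of Foxc1 and 3 of Ebf3.

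The stromal program around these genes was broad. Of 36 listed stromal and mesenchymal transcription factors, 32 were measured between stromal-like and EC endothelial-like cells, with 20 called higher and 8 lower in the stromal class, beside 21.2% and 17.7% of all genes. Runx2 (log2 ratio 9.81), Hoxc10 (9.16) and Heyl (8.97) were among those with the highest ratios. Nr2f2, a factor of venous endothelium, had the lowest, -5.01 (-5.24 to -4.80), at 12.4 against 402 CPM. Of the family list, 7 were measured, and Foxs1 (790 UMIs against 2), Foxc2 (2.93, 2.60 to 3.28), Prrx2 (3.25, 1.57 to 5.61) and Foxf2 (34 UMIs against 0, 10.5-fold with 0 taken as 3 UMIs) were higher in stromal-like cells. Ebf4, the remaining paralogue, had 12 and 16 UMIs and was not called.

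Of the 10 genes reported to need Foxc1 or EBF factors, 9 were higher in stromal-like cells, beside 21.2% of all genes, and Pparg lower (-2.38, -2.49 to -2.27), beside 17.7%. Lepr and Adipoq on this list, like the stromal markers on the adipogenic list, helped to name the stromal-like class, so that their calls were set by the naming. Cxcl12 reached a log2 ratio of 8.99, Il7, the cytokine of B cell precursors, 7.86, and Kitl 6.61. Angpt1 had 1534 UMIs against 0, 472-fold higher with 0 taken as 3 UMIs. The osteogenic list had 16 of 17 measured genes higher, led by Spp1 (12.20), Ibsp (11.71) and Col1a2 (10.98). The adipogenic list split, 6 of 11 higher and 3 lower, with Adipoq at 11.01 and Fabp4 at -7.83. Of the B lineage list 2 genes were measured, Cd74, lower in stromal-like cells (-2.65), and Vpreb1, not called (-0.81).

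Genes most like each member across the 11 clusters of at least 30 cells were ranked by Pearson correlation of log2(CPM + 10) among 5316 genes. They were Tsc22d3 (0.977), Pgs1 (0.973) and Cnn2 (0.963) for Ebf1, and Akr1c12 and Cyp1b1 (both 0.998) for Ebf2. For Ebf3 they were Cdk14 (0.988), Dlg5 (0.987) and Fzd5 (0.985), for Foxc1 Gas6 (0.986), C1ra (0.978) and Ift43 (0.976), and for Prrx1 Ptgfr (0.9997), Adamts2 (0.9996) and Bmp5 (0.9992). Between members the lowest value was 0.682 for Ebf1 with Foxc1 and the highest 0.996 for Ebf2 with Prrx1. Clusters of the same library share its preparation and free RNA, so these values only describe the order.

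Shallow cells, under 1000 UMIs, were 13.6% of LepR_tdT (578 cells) and 16.2% of EC cells (736). Between all shallow and all deep cells, none of the 5 genes was called in LepR_tdT, where 6.46% of all measured genes were. In EC, where 5.82% were, none of the 3 measured was called, and Ebf2 and Prrx1 had too few UMIs. In LepR_tdT, Ebf1 stood at 1435 CPM (1302 to 1579) in shallow against 801 CPM in deep cells, a log2 ratio of 0.84 (0.70 to 0.98), and Ebf3 at 624 against 351 CPM, 0.83 (0.61 to 1.04). Foxc1 went slightly the other way, 204 against 255 CPM (-0.32, -0.71 to 0.05), as did Prrx1, 163 against 196 CPM (-0.27, -0.71 to 0.14). The median of all genes was 0.26, so Ebf1 and Ebf3 lay above it and Foxc1 and Prrx1 below. Of the 12348 measured genes, 29.7% had a higher ratio than Ebf1 and 30.1% a higher one than Ebf3, so neither stood out. In the EC library Ebf1 stood at 54.3 against 44.4 CPM, Foxc1 at 34.6 against 25.5 CPM and Ebf3 at 12.3 against 10.4 CPM, on 22, 14 and 5 UMIs in shallow cells. Within classes, Ebf1 was called higher in the 11 shallow stromal-like cells (15 UMIs, 1.15, 0.31 to 1.87), where 1.76% of genes were, and in the 69 shallow endothelial-like cells of EC (7 UMIs, 1.94, 0.61 to 2.99), where 2.88% were. The library contrast held in shallow cells alone, with log2 ratios of 4.72 (4.11 to 5.41) for Ebf1, 5.66 (4.41 to 7.30) for Ebf3 and 2.56 (1.70 to 3.51) for Foxc1, and with 48 Prrx1 UMIs against 0. There 15.6% of 5087 genes were called higher, and Ebf2, with 5 UMIs, was not measured.

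Most shallow LepR_tdT cells (87.4%) belonged to the shallow cluster, in which Ebf3 and Ebf1 themselves were among the 10 leading genes. At an equal 400 UMIs per cell, Ebf1 was seen in 42.3% (37.6 to 47.2) of its cells (418 kept, 186 left out) and 29.9% (28.2 to 31.6) of stromal-like cells (2917 kept). Ebf3 was seen in 23.0% (19.0 to 27.3) and 14.1% (12.8 to 15.4), Foxc1 in 8.85% and 11.7%, and Prrx1 in 6.94% and 8.13%. Stromal markers summed to 18802 CPM in the shallow cluster and B cell markers to 0 UMIs.

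A gradient of the same kind ran through the stromal-like cells. Ebf1 went from 1216 CPM (1058 to 1392) in 109 cells of 1000 to 2000 UMIs, through 978 and 801 CPM, to 796 CPM (746 to 848) in 127 cells of 8000 UMIs or more. Ebf3 went from 588 through 438 and 374 to 355 CPM. Among 7016 measured genes, 21.6% had a lower ratio of the deepest to the shallowest bin than Ebf1, and 16.8% than Ebf3. Foxc1 (346, 297, 272 and 284 CPM) and Prrx1 (236, 207, 200 and 218 CPM) changed less, and their end intervals overlapped. Over the same bins Malat1, a nuclear transcript, went from 80503 to 34433 CPM, Runx2 from 277 to 126 CPM, and the mitochondrial share from 5.17% to 2.40%. The part of these measures or of depth in the Ebf1 and Ebf3 levels was not tested.

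**Figure D5:**
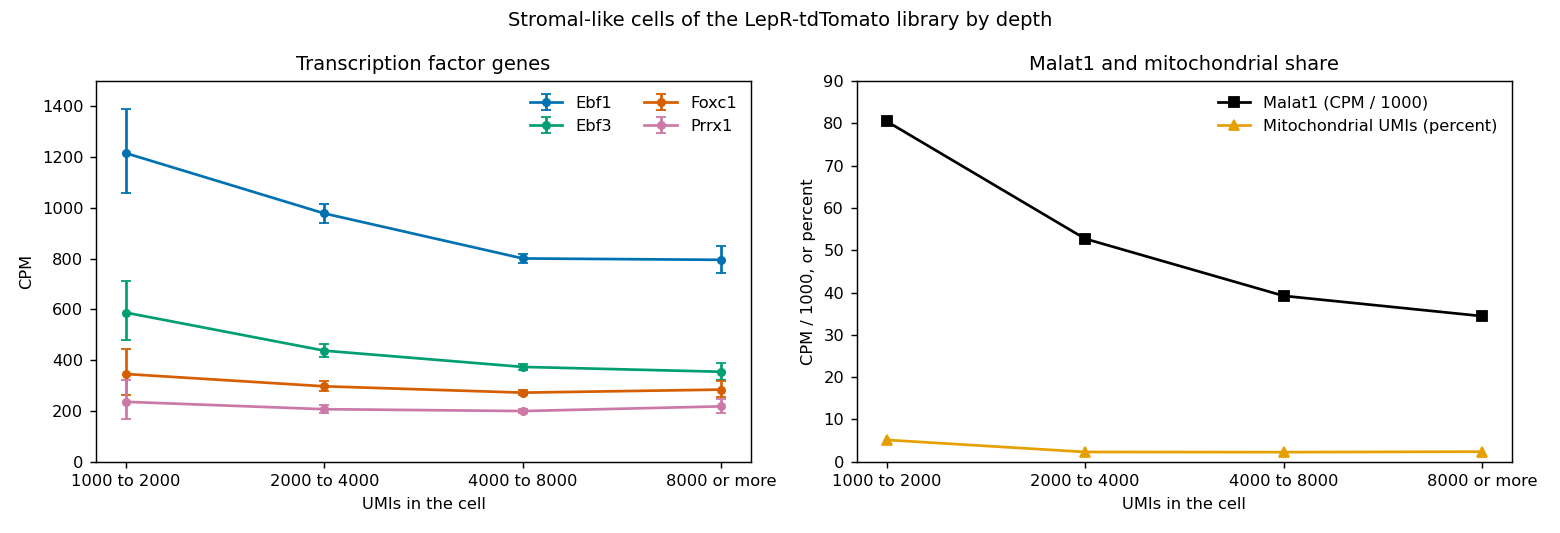
Left, CPM of 4 of the genes in stromal-like cells by the number of UMIs in the cell, with 95% Poisson intervals; right, Malat1 in CPM divided by 1000 and the mitochondrial share of UMIs in percent for the same cells. Ebf1 goes from 1216 to 796 CPM while Prrx1 stays between 200 and 236 CPM.

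The Kit-led group of 290 cells differed little from stromal-like cells in these genes. Ebf1 stood at 804 CPM (-0.07, -0.15 to 0.02), Ebf3 at 326 CPM (-0.25, -0.38 to -0.13), Prrx1 at 188 CPM (-0.11, -0.28 to 0.06) and Ebf2 at 16.0 CPM (0.15, -0.49 to 0.73). Foxc1, at 204 CPM, had the largest difference (-0.45, -0.62 to -0.30). None was called, where 6.59% of genes were. In the shallow EC cluster the genes stood at 35.6 CPM for Ebf1, 21.0 for Ebf3 and 25.2 for Foxc1, with 0 UMIs of Ebf2 and Prrx1.

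By level, then, the classes fell in an order that differed between genes. Ebf1 was highest in the shallow cluster and the pericyte-like cells, which did not differ beyond their intervals, followed by stromal-like cells and the Kit-led group, which did not differ either, and by osteolineage-like cells. Granulocyte-like and arterial-like cells of the EC library came next and did not differ beyond their intervals. Ebf3 ran from the shallow cluster through stromal-like cells and the Kit-led group to osteolineage-like cells, each step beyond the interval. Foxc1 decreased from stromal-like cells through the shallow cluster and the Kit-led group to osteolineage-like cells in steps within the interval, and the next class, erythroid-like cells with 3 UMIs, lay lower by a log2 difference of 2.24 (0.68 to 4.53). Prrx1 led in pericyte-like cells, and the stromal-like, osteolineage-like, Kit-led and shallow groups that followed did not differ from their neighbours.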

How the data were processed

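The deposited matrix holds UMI counts per gene and barcode, made by the authors; Cell Ranger 2.1.1, Seurat 2.3.4 and mm10 are named in the submitters' processing notes without roles. The cells are those of the deposited cell table (4536 EC, 4250 LepR_tdT), and all their counts were used. No value column lacked a sample. Counts were log-normalized and clustered jointly (Leiden, resolution 0.5, 30 components, 15 neighbours, 1578 genes; scanpy 1.11.5, igraph 0.11.9), without the 5 genes, listed transcription factors, mitochondrial genes or tdTomato. Classes were named from marker lists, and a difference from the study may come from these rebuilt names. No doublet caller was run; 406 EC and 61 LepR_tdT cells carried both stromal and endothelial markers and were left out as an alternative. Counts were summed per class, with exact Poisson intervals for CPM, conditional exact intervals for ratios and Clopper-Pearson intervals for shares, at 95%. A count of 0 was taken as 3 UMIs for levels and ratios, which is a floor and not the end of an exact interval. With 1 library per group there is no test between animals. Members and gene lists were chosen with earlier results of these data known. Other genes are named from those lists, and the 3 genes most like each member by correlation; some genes these rules name are not reported here. TMM (edgeR 4.0.16) and median-ratio factors (DESeq2 1.42.0) served as scaling alternatives only.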

Additional observations from a re-analysis of the deposited data

How the results depend on the processing

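All 5 genes kept their call in stromal-like against endothelial-like cells under every alternative run, and no called value changed direction. The sign changed in 14 recomputed values of 8 results, none of them called. Prrx1 in osteolineage-like against stromal-like cells (-0.01 by total UMIs) stood at 0.06 with TMM and 0.07 with median-ratio scaling. After free RNA was subtracted, Prrx1 stood at 0.44 (0.22 to 0.65), which excludes 0 but is less than 2-fold. That subtraction was scaled to remove all counts of the haemoglobin gene Hbb-bs. It took 54.4% of osteolineage-like UMIs against 5.19% of stromal-like UMIs. Erythroid markers summed to 2918 and 260 CPM in these classes, and their part in the Prrx1 value was not tested. Ebf2 in the same contrast stood at -1.01 (-2.25 to 0.01) at resolution 1.0. In all, 195 recomputed member ratios kept their side of the call and 2 became called. TMM and median-ratio scaling moved the log2 ratios by -0.14 in arterial-like against sinusoidal-like cells and by 0.08 or less elsewhere. Osteolineage-like against stromal-like counts of genes, 570 higher and 644 lower, became 313 and 402 with a marker gate in place of clusters, and 992 and 2289 after free RNA was subtracted, where the subtraction removed 54.4% of osteolineage-like UMIs. Stromal-like against endothelial-like cells within LepR_tdT had 1183 genes higher, 616 with the marker gate and 586 without cells of mixed markers. Shallow against deep cells at a limit of 500 UMIs gave 252 higher and 131 lower in LepR_tdT (531 and 267 at 1000) and 267 and 124 in EC (429 and 243 at 1000), and 156 lower in EC at 2000. At resolution 1.0 there were 347 arterial-like cells with Ebf1 at 188 CPM, and 225 osteolineage-like cells with Ebf2 at 6.94 CPM (8 UMIs); the marker gate left 40 arterial-like cells. The cause of these shifts was not tested. Few UMIs limit Ebf2 everywhere and Prrx1 in endothelial-like cells. No paired analysis was possible because each population has 1 library.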
